A study of Mus musculus with 23 samples.

Results

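The complement genes described here are 33 genes of the mouse complement system, taken from a list of gene names and not by a threshold on values, although earlier results of these data were known when the list was made. All 33 were found by symbol among the 27179 genes of the count table. They fall into the classical pathway with 6 genes, the lectin pathway with 6, the alternative pathway with 4, the terminal pathway with 6, regulators with 9 and receptors with 2. RNA was sequenced from visibly tumor-free liver tissue of 15 female mice, 6 Ctrl, 6 ABpIF/+ and 3 ABpIF/F. Ctrl mice were Alb-Cre/Trp53 flx/flx/Icmt flx/+ with wild-type Braf. ABpIF/+ mice carried in addition the Braf CA allele, which gives the active kinase Braf V600E, and ABpIF/F mice carried this allele with Icmt flx/flx. All 3 groups share the deletion of Trp53 and Alb-Cre, which recombines floxed alleles in hepatocytes and, being active in their embryonic precursors, also in bile duct cells. The study describes the floxed Icmt allele as less expressed even without Cre, so Icmt may be lowered in other cells of ABpIF/F mice too. Icmt encodes the enzyme that methylates the prenylated cysteine of RAS-like proteins. The genotype labels of the ABpI mice write Braf as +/+, whereas the design text gives the Braf CA/+ genotype. Ages were not among the labels, and no more than 3 ABpIF/F mice were obtained. The study describes these 3 mice at different ages, all with liver tumors and a burden that rose with age. The labels do not tell which of them had which age. The comparisons ask how active Braf changes liver RNA with 1 floxed Icmt allele, and how the 2 Icmt genotypes differ under active Braf. ABpIF/F vs Ctrl changes Braf and Icmt together, because no group had wild-type Braf with Icmt flx/flx. The part of each gene in that comparison cannot be told apart. Strain labels also differ between Ctrl and ABpI mice, except for the Ctrl mouse BG3, as described below.

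Complement is a cascade of plasma proteins, most of them made by hepatocytes, that marks microbes and dying cells and can pierce membranes. In the classical pathway C1q binds antibody or surfaces and activates the proteases C1r and C1s, which cleave C4 and C2. In the lectin pathway mannose-binding lectins, ficolins and collectins bind sugars and activate the MASP proteases, and both routes lead to cleavage of C3. The alternative pathway amplifies that cleavage with factor B, factor D and properdin. Cleaved C5, encoded in mice by Hc, then joins C6, C7, C8 and C9 into the membrane attack complex. C8 is built from an alpha, a beta and a gamma chain, encoded by C8a, C8b and C8g, and C9 polymerizes into the pore. Regulators such as factor I, C4b-binding protein, clusterin, vitronectin and C1 inhibitor limit the cascade, and small fragments of C3 and C5 act on receptors of leukocytes.

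Promoter sequences are printed for the 3 C8 chain genes and C9, because the RNAs of these parts of one complex moved differently between the groups. Each sequence runs from 250 bases before to 50 bases after a start listed for the gene, on the coding strand, from RefSeq on GRCm38.p6. For C8a and C8g this start lies inside the gene span given further below, not at its end. Capitals mark matches to the motifs given below. The C8a promoter lies on the minus strand at chr4:104876349-104876648, that of C8b on the plus strand at chr4:104766067-104766366, that of C8g on the minus strand at chr2:25501670-25501969 and that of C9 on the plus strand at chr15:6445096-6445395.
C8a: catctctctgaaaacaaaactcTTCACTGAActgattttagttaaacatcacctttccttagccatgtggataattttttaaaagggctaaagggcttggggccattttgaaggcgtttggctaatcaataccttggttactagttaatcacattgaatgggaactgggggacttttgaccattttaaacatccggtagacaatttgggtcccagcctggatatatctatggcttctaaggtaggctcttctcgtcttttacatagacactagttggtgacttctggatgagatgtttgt
C8b: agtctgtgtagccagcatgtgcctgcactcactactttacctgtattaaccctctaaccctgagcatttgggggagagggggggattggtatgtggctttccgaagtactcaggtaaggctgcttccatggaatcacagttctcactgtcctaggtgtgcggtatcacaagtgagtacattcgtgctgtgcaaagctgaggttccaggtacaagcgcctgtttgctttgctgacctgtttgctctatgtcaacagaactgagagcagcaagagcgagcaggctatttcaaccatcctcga
C8g: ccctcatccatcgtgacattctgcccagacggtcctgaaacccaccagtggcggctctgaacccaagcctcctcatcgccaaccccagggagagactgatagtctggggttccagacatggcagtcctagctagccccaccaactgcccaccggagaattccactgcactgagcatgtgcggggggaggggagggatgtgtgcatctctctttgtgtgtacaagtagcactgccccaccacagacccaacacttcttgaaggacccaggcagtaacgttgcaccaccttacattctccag
C9: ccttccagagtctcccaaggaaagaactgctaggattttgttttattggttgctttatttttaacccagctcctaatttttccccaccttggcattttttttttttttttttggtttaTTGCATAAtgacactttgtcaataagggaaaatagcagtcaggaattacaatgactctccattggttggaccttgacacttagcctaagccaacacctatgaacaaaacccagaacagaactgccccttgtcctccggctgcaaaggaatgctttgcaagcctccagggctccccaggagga

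The C8a promoter held a GAS-like match, TTCACTGAA, and the C9 promoter a C/EBP-like match, TTGCATAA, whereas the printed promoters of C8b and C8g held none of the motifs searched. Motifs were searched as exact letters on both strands of 1 promoter per gene, the first listed, for 26 of the 33 members and for 27025 genes in all. The ISRE-like letters GAAANNGAAA were in 3.49% of all promoters and in those of 3 members, Colec11, Cd59a and Vtn. The GAS-like letters TTCNNNGAA were in 8.47% of all promoters and in 6 of the 26, namely C1ra, Masp2, Colec11, C8a, Cfhr2 and Vtn. C/EBP-like letters, TTGCNNAA, were in 10.8% of all promoters and in 4 of the 26, C1ra, C1s1, C3 and C9. HNF1-like letters, GTTAATNAT, were in 0.836% of all promoters and in 3 of the 26, Hc, C4bp and Cfhr2. NF-kB-like letters, GGGNNNNNCC, were in 50.4% of all promoters and in 11 of the 26. Matches of different motifs can overlap, as they do in Colec11, and they describe these letters in this window and no binding.

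The reads counted on genes numbered 24742910 to 32262649 in a mouse. The 33 complement genes together took 2.10 to 2.68% of these in Ctrl, 1.94 to 2.80% in ABpIF/+ and 2.53 to 3.96% in ABpIF/F livers. Levels below are CPM, which are counts divided by each mouse's TMM-scaled total, and 31 of the 33 genes had at least 10 counts in every mouse. Icmt itself was at 27.8 to 34.7 CPM in Ctrl, 27.8 to 37.4 in ABpIF/+ and 15.2 to 16.6 in ABpIF/F livers. Among the Ctrl mice, malpa387 and BG3 stood apart from the other 4: both lay above all of them in 24.7% and below all of them in 21.4% of the 12316 expressed genes (mean CPM of 1 or more), and in 6 and 9 of the 33 complement genes. This pair was picked out after seeing the values. Values without these 2 mice are given for some of the genes, and counts of called genes without them are given at the end. The 9 ABpI mice share their strain label with BG3 alone among the Ctrl mice. In both comparisons with Ctrl, strain label and genotype can therefore be told apart through BG3 only. A clock score, the mean log2 CPM of 4 morning clock genes minus that of 9 evening clock genes, was -0.92, 1.36 and -0.12 in the 3 ABpIF/F mice and 0.05 in malpa387, against -5.41 to -3.87 in the other mice.

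Per kilobase of exon, C3, the central protein of all pathways, was the most abundant of the 33 genes in each group, with 2121 CPM per kb in Ctrl, 2160 in ABpIF/+ and 2673 in ABpIF/F livers on average. Vtn, encoding vitronectin, which blocks membrane insertion of the terminal complex, came next with 1125, 1103 and 1252 CPM per kb. In this order of mean levels Mbl2 stood at rank 3 in Ctrl livers with 450 CPM per kb, 9 in ABpIF/+ and 14 in ABpIF/F livers. Clu stood at rank 5 in Ctrl and 3 in ABpIF/F livers, and C9 at rank 16 in Ctrl, 27 in ABpIF/+ and 16 in ABpIF/F livers. Cfd, encoding factor D, which is made mainly by fat cells, was practically absent, with 1 count in each of 2 Ctrl mice, 9 counts in the ABpIF/+ mouse BG88 and 0 in the other mice. The adipocyte markers summed to between 0.786 and 4.40 CPM in all mice.

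**Figure D1:**
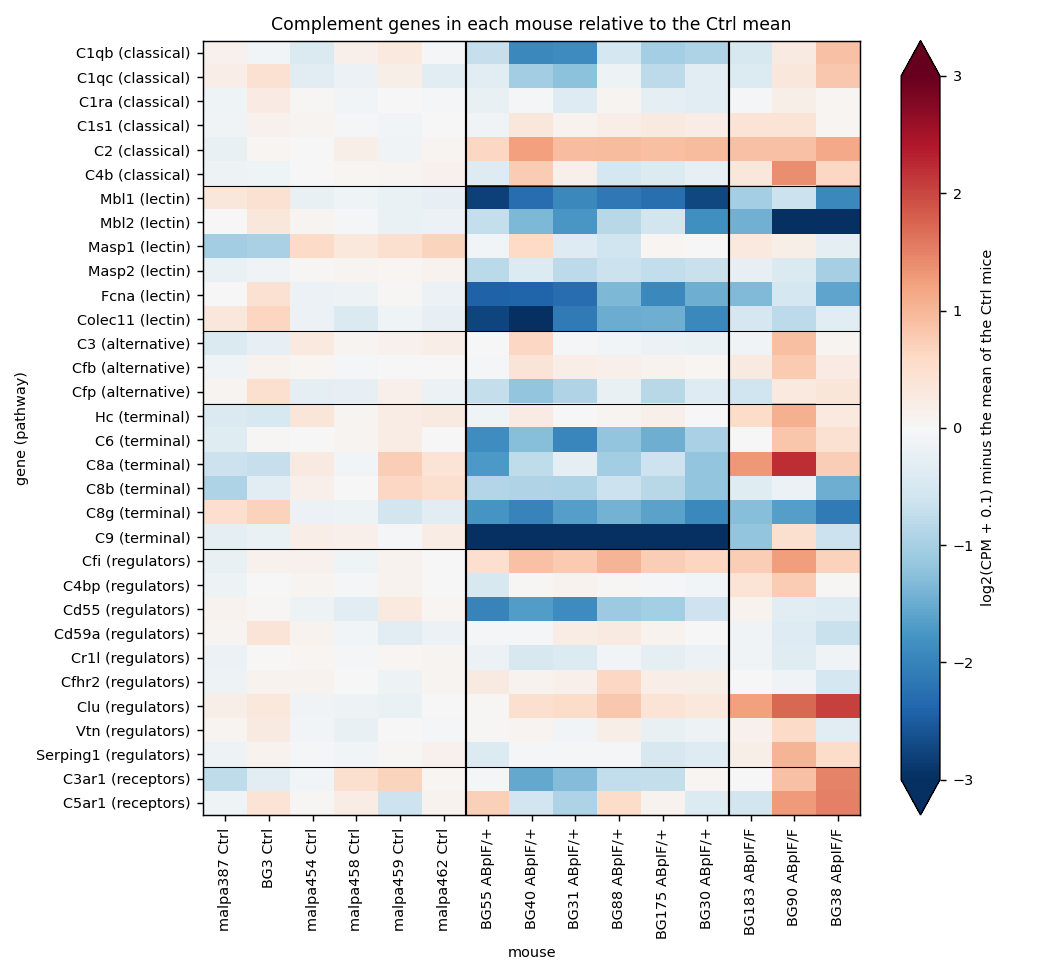
Level of 32 complement genes (rows, grouped by pathway; Cfd is left out because of its counts of 0) in each of the 15 mice (columns, grouped as Ctrl, ABpIF/+ and ABpIF/F), drawn as log2(CPM + 0.1) minus the mean of the 6 Ctrl mice, with the colour scale ending at 3 on either side. C9 is deep blue in the 6 ABpIF/+ mice, while C2 and Cfi are red in all ABpI mice and C8a and Clu are red in the 3 ABpIF/F mice.

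A gene was called when its edgeR quasi-likelihood test gave a Benjamini-Hochberg adjusted p under 0.01 over all genes and the absolute log2 fold change was at least 1. In ABpIF/+ vs Ctrl 8 complement genes fell, C1qb, Mbl1, Fcna, Colec11, C6, C8g, C9 and Cd55, beside 5.35% of all genes that were called lower. None rose by edgeR or DESeq2, beside 4.69% of all genes called higher, and 3 had an unadjusted p under 0.05 and a higher mean. In ABpIF/F vs Ctrl 4 complement genes fell, Mbl1, Mbl2, Fcna and C8g (2.38% of all genes were called lower), and 2 rose, C8a and Clu (4.55% of all genes were called higher). In ABpIF/+ vs ABpIF/F 9 were lower in ABpIF/+ livers, C1qb, Mbl1, Colec11, C6, C8a, C9, Cd55, Clu and C3ar1, beside 5.49% of all genes. None was higher there by edgeR, beside 1.76% of all genes, while 3 had an unadjusted p under 0.05 in that direction and DESeq2 called 1, Mbl2. These are RNA levels. In its protein data the study lists complement activation among the processes higher in ABpIF/+ than in ABpIF/F livers, and protein was not examined here. The median log2 fold change of the 33 genes was -0.23 in ABpIF/+ vs Ctrl, 0.15 in ABpIF/F vs Ctrl and -0.49 in ABpIF/+ vs ABpIF/F, and that of all genes was 0 in each. Among the 12316 expressed genes, which include 31 of the 33 members, the shares called lower were 9.39%, 5.04% and 8.50% in the 3 comparisons, and those called higher 8.21%, 7.53% and 3.72%. These comparisons share mice pairwise and are not independent of each other. In total 12 of the 33 genes were called in at least 1 comparison and 21 in none.

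**Figure D2:**
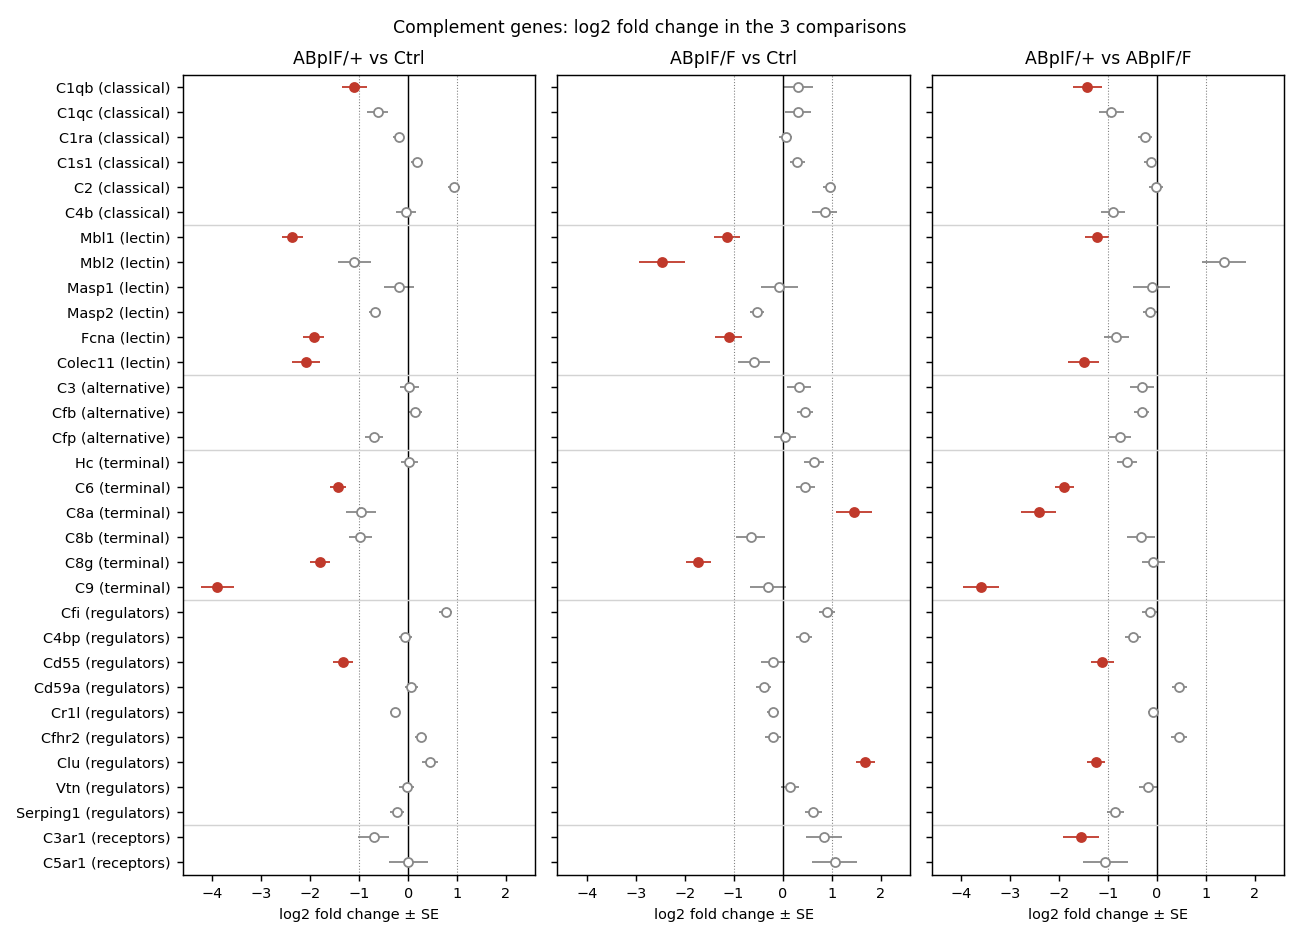
Log2 fold change of 32 complement genes (rows, grouped by pathway; Cfd is left out) in the 3 comparisons (panels), with bars of 1 standard error, filled red where the gene was called and open grey where it was not; dotted lines mark a 2-fold change. In ABpIF/+ vs Ctrl all 8 called genes lie left of 0, with C9 at -3.89, and in ABpIF/F vs Ctrl C8a and Clu lie right of 0.

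Of the 6 genes of the lectin pathway 3 fell in ABpIF/+ and 3 in ABpIF/F vs Ctrl, all of them encoding molecules that recognize sugars. Mbl1 (Entrez 17194, chr14:41151456-41163904 on GRCm38.p6), encoding the mannose-binding lectin MBL-A, was at 110 CPM at the lowest, 115 at the median and 178 at the highest in Ctrl mice, and at 18.6, 26.6 and 33.7 CPM in ABpIF/+ mice. ABpIF/F mice had 63.3, 83.0 and 34.0 CPM (BG183, BG90 and BG38). No ABpI mouse overlapped with the Ctrl mice, and all ABpIF/F mice lay above all ABpIF/+ mice, BG38 by a small margin. Mbl1 was 5.15-fold lower in ABpIF/+ than in Ctrl livers (log2 fold change -2.36, standard error 0.21, edgeR adjusted p = 9.01e-08). It was 2.2-fold lower in ABpIF/F livers (-1.14, standard error 0.26, edgeR adjusted p = 0.00385), and the direct comparison of ABpIF/+ with ABpIF/F gave -1.23 (standard error 0.24, edgeR adjusted p = 0.00122). The ABpIF/F call was lost without malpa387 and BG3 (-0.91, edgeR adjusted p = 0.0230), without BG183 (-1.18) and without BG38 (-0.85), and that between the ABpI groups without BG90 (-0.92).

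Mbl2 (chr19:30232906-30239687), encoding another mannose-binding lectin, MBL-C, had its lowest values in ABpIF/F livers. It was at 427 CPM at the lowest, 479 at the median and 611 at the highest in Ctrl mice, at 137, 233 and 330 in ABpIF/+ mice, and at 180, 36.5 and 50.8 in the ABpIF/F mice BG183, BG90 and BG38. Neither ABpI group overlapped with Ctrl, whereas BG183 lay within the range of the ABpIF/+ mice. The fall in ABpIF/F vs Ctrl was 5.51-fold (log2 fold change -2.46, standard error 0.47, edgeR adjusted p = 0.00184). In ABpIF/+ vs Ctrl the value was -1.10 (standard error 0.34) and was not called (edgeR adjusted p = 0.0286), and ABpIF/+ vs ABpIF/F gave 1.36 (standard error 0.44, edgeR adjusted p = 0.0464). DESeq2 called both of these, and leaving out BG183 gave 2.39 in ABpIF/+ vs ABpIF/F (edgeR adjusted p = 3.43e-05). The ABpIF/F call was lost without BG38 (-2.18, edgeR adjusted p = 0.0184) and without malpa387 and BG3 (-2.37, edgeR adjusted p = 0.0107). Per kilobase, Mbl2 was 4.32 to 6.71 times as abundant as Mbl1 in Ctrl mice, 6.24 to 23.1 times in ABpIF/+ mice and 0.633 to 4.10 times in ABpIF/F mice, so that these ratios of the ABpIF/F mice lay below those of all other mice.

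Fcna, encoding ficolin A, a sugar-binding lectin of macrophages, was at 39.7 CPM at the lowest, 43.0 at the median and 61.5 at the highest in Ctrl mice, and at 8.37, 10.5 and 17.8 in ABpIF/+ mice. Values in ABpIF/F mice were 18.1, 31.1 and 14.9 CPM (BG183, BG90 and BG38), all below the Ctrl mice. It fell 3.81-fold in ABpIF/+ livers (log2 fold change -1.93, standard error 0.22, edgeR adjusted p = 3.77e-06) and 2.14-fold in ABpIF/F livers (-1.10, standard error 0.27, edgeR adjusted p = 0.00906). The ABpIF/F call is close to the threshold and was lost when any 1 of the 6 Ctrl mice, BG183 or BG38 was left out, at log2 fold changes between -1.14 and -0.89. Colec11, encoding collectin-11, was at 24.1 CPM at the lowest, 29.2 at the median and 51.0 at the highest in Ctrl mice and at 3.64, 7.92 and 11.7 in ABpIF/+ mice. In ABpIF/F mice it was at 23.0, 18.7 and 25.5 CPM (BG183, BG90 and BG38), between the ABpIF/+ mice and most Ctrl mice. It was 4.25-fold lower in ABpIF/+ than Ctrl livers (log2 fold change -2.09, standard error 0.28, edgeR adjusted p = 3.72e-05) and 2.82-fold lower than in ABpIF/F livers (-1.5, standard error 0.32, edgeR adjusted p = 0.00374). The latter call was lost without BG183 (-1.48, edgeR adjusted p = 0.0138) or BG38 (-1.39). ABpIF/F vs Ctrl gave -0.59 (standard error 0.33, edgeR adjusted p = 0.300).

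The proteases of the lectin pathway were not called. Masp1 spread widely and was at 36.8 and 38.7 CPM in malpa387 and BG3 and between 95.4 and 121 CPM in the other 4 Ctrl mice. ABpIF/+ mice had 50.7 to 116 CPM, and the ABpIF/F mice 94.1, 86.8 and 63.5 CPM (BG183, BG90 and BG38). Masp2, the protease that cleaves C4 and C2, was at 129 to 159 CPM in Ctrl, 83.8 to 109 in ABpIF/+ and 73.3 to 124 CPM in ABpIF/F mice. Its log2 fold change of -0.67 in ABpIF/+ vs Ctrl (standard error 0.12, edgeR adjusted p = 0.000198) is under 2-fold and was not called, although the groups did not overlap.

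**Figure D3:**
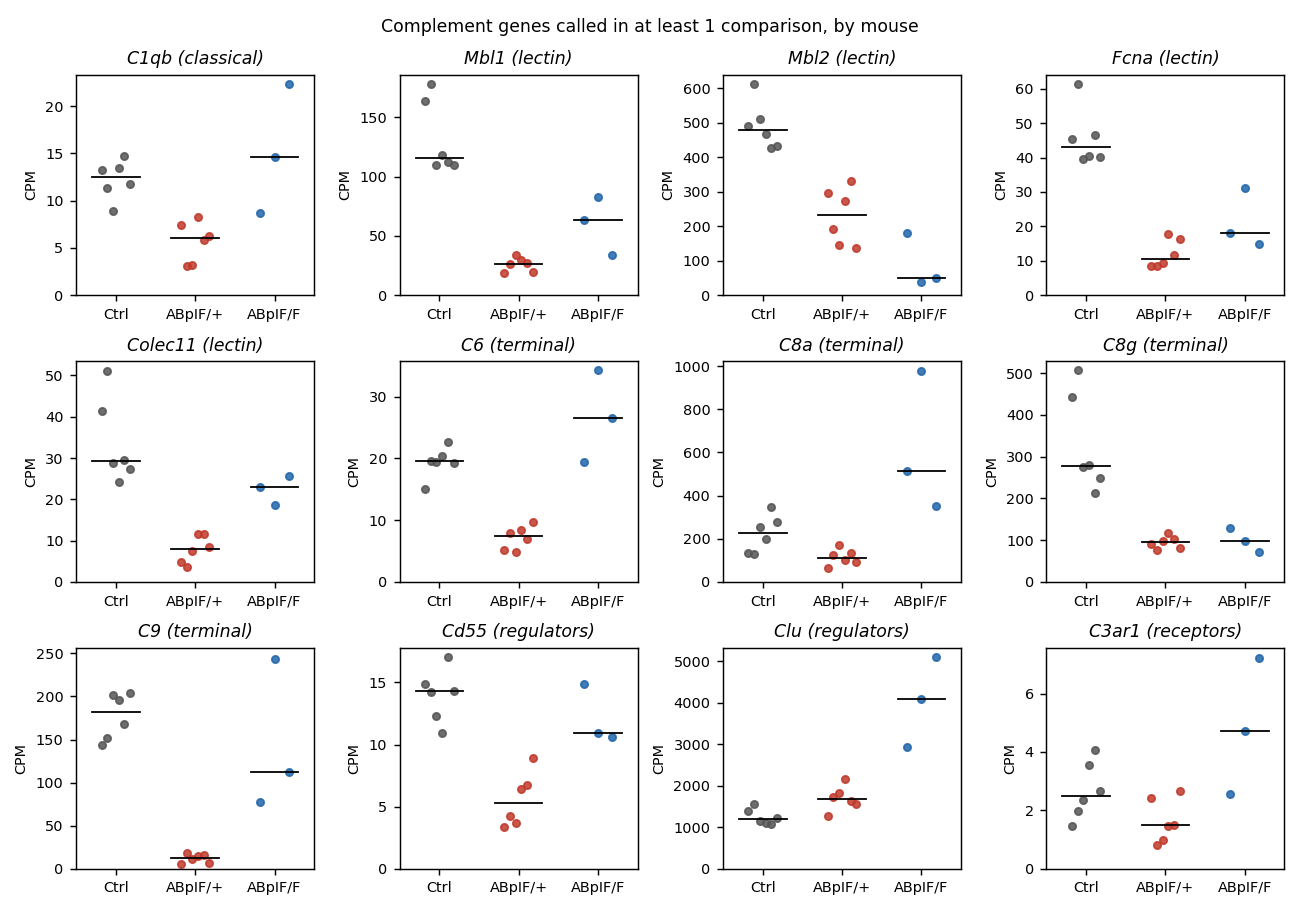
CPM (vertical axes, starting at 0) of the 12 complement genes called in at least 1 comparison, 1 point per mouse with 6 Ctrl, 6 ABpIF/+ and 3 ABpIF/F mice; the bars are medians. All 6 ABpIF/+ mice lie below all Ctrl mice in C1qb, Mbl1, Mbl2, Fcna, Colec11, C6, C8g, C9 and Cd55, and the 3 ABpIF/F mice lie above all other mice in C8a and Clu.

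The terminal pathway held the widest difference of the set. C9 (Entrez 12279, chr15:6445346-6498825 on GRCm38.p6), whose product forms the ring of the pore, was at 144 CPM at the lowest, 182 at the median and 204 at the highest in Ctrl mice. In ABpIF/+ mice it was at 5.55, 12.6 and 18.5 CPM, far below every other mouse. The ABpIF/F mice BG183, BG90 and BG38 had 78.0, 244 and 112 CPM, so that BG90 exceeded all Ctrl mice and the other 2 lay below them. C9 was 14.9-fold lower in ABpIF/+ than in Ctrl livers (log2 fold change -3.89, standard error 0.34, edgeR adjusted p = 5.98e-07) and 12.1-fold lower than in ABpIF/F livers (-3.60, standard error 0.36, edgeR adjusted p = 1.54e-05). ABpIF/F vs Ctrl gave -0.29 with a 95% interval of -1.09 to 0.50 (edgeR adjusted p = 0.807), which includes a 2-fold fall. The fall in ABpIF/+ vs Ctrl was called under all 25 alternative settings, with log2 fold changes between -4.06 and -3.67. Against the single Ctrl mouse BG3, which shares the strain label, it remained called.

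C6, which C5b recruits, was at 15.0 CPM at the lowest, 19.6 at the median and 22.6 at the highest in Ctrl mice and at 4.92, 7.38 and 9.76 in ABpIF/+ mice. In the ABpIF/F mice BG183, BG90 and BG38 it was at 19.4, 34.2 and 26.5 CPM, and BG183 lay within the Ctrl range. C6 was 2.70-fold lower in ABpIF/+ than Ctrl livers (log2 fold change -1.43, standard error 0.17, edgeR adjusted p = 6.95e-07) and 3.71-fold lower than in ABpIF/F livers (-1.89, standard error 0.19, edgeR adjusted p = 9.97e-07). With the clock score as covariate C6 was still called in ABpIF/+ vs ABpIF/F (-1.97, edgeR adjusted p = 0.00544). C9 and C8a were not called in that fit, although their log2 fold changes were -3.58 and -2.96 (edgeR adjusted p = 0.0209 and 0.0300).

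The genes of the 3 C8 chains all had negative log2 fold changes in ABpIF/+ vs Ctrl, -0.96 for C8a, -0.98 for C8b and -1.79 for C8g. In ABpIF/F vs Ctrl C8a differed in direction, with 1.46, beside -0.65 for C8b (standard error 0.30, edgeR adjusted p = 0.168) and -1.72 for C8g. C8a and C8b are neighbours on chromosome 4, at 104815679 to 104876487 and 104766317 to 104804548 of GRCm38.p6, with 11130 bases between them, and C8g lies on chromosome 2 at 25498650 to 25501777. C8a, the alpha chain, was at 131 CPM at the lowest, 226 at the median and 349 at the highest in Ctrl mice and at 63.6, 113 and 172 in ABpIF/+ mice. The ABpIF/F mice BG183, BG90 and BG38 had 516, 976 and 352 CPM, above all other mice, BG38 only just above the highest Ctrl mouse. C8a was 2.74-fold higher in ABpIF/F than Ctrl livers (log2 fold change 1.46, standard error 0.36, edgeR adjusted p = 0.00988) and 5.34-fold lower in ABpIF/+ than ABpIF/F livers (-2.42, standard error 0.36, edgeR adjusted p = 0.000255). The first of these calls is at the threshold and was lost under 13 of 22 alternative settings. It was lost when malpa387, BG3, malpa454, malpa458, malpa462, BG183 or BG90 was left out, and without BG90 the value was 0.95 (edgeR adjusted p = 0.10). ABpIF/+ vs Ctrl gave -0.96 (standard error 0.31, edgeR adjusted p = 0.0309), and without malpa387 and BG3 it was -1.23 and was called (edgeR adjusted p = 0.00835).

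C8g, the gamma chain, was at 213 CPM at the lowest, 278 at the median and 507 at the highest in Ctrl mice, with malpa387 and BG3 at 444 and 507. ABpIF/+ mice had 77.3, 94.7 and 117 CPM, and the ABpIF/F mice BG183, BG90 and BG38 129, 98.7 and 71.5 CPM. All ABpI mice lay below all Ctrl mice. It fell 3.47-fold in ABpIF/+ livers (log2 fold change -1.79, standard error 0.20, edgeR adjusted p = 9.33e-07) and 3.29-fold in ABpIF/F livers (-1.72, standard error 0.26, edgeR adjusted p = 7.67e-05). The difference between ABpIF/+ and ABpIF/F was -0.07 with a 95% interval of -0.58 to 0.43. C8g was the complement gene still called in ABpIF/F vs Ctrl when BG3 was the only Ctrl mouse.

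C8b, the beta chain, was at 88.4 CPM at the lowest, 180 at the median and 261 at the highest in Ctrl mice, at 74.6, 90.8 and 109 in ABpIF/+ mice, and at 131, 150 and 61.8 in the ABpIF/F mice BG183, BG90 and BG38. malpa387 and BG3, with 88.4 and 134 CPM, were below the other 4 Ctrl mice. ABpIF/+ vs Ctrl gave -0.98 (standard error 0.24, edgeR adjusted p = 0.00472), just under 2-fold, and -1.23 without these 2 mice (edgeR adjusted p = 0.000126). Per kilobase of exon the alpha chain RNA was 0.106 to 0.672 times as abundant as the gamma chain RNA in Ctrl mice, 0.288 to 0.718 times in ABpIF/+ mice and 1.64 to 4.06 times in ABpIF/F mice. For the beta chain the same ratio was 0.117 to 0.717 in Ctrl, 0.527 to 0.683 in ABpIF/+ and 0.507 to 0.893 in ABpIF/F mice.

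Hc, encoding C5, was the most abundant uncalled gene of the terminal pathway. It was at 566 CPM at the lowest, 877 at the median and 1023 at the highest in Ctrl mice, with malpa387 and BG3 at 584 and 566, and at 729, 817 and 947 in ABpIF/+ mice. It reached 1165, 1664 and 978 CPM in the ABpIF/F mice BG183, BG90 and BG38. ABpIF/+ vs Ctrl gave 0.03 with a 95% interval of -0.32 to 0.37, an interval within a 2-fold change, and ABpIF/F vs Ctrl gave 0.64 (standard error 0.20, edgeR adjusted p = 0.0280).

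**Figure D4:**
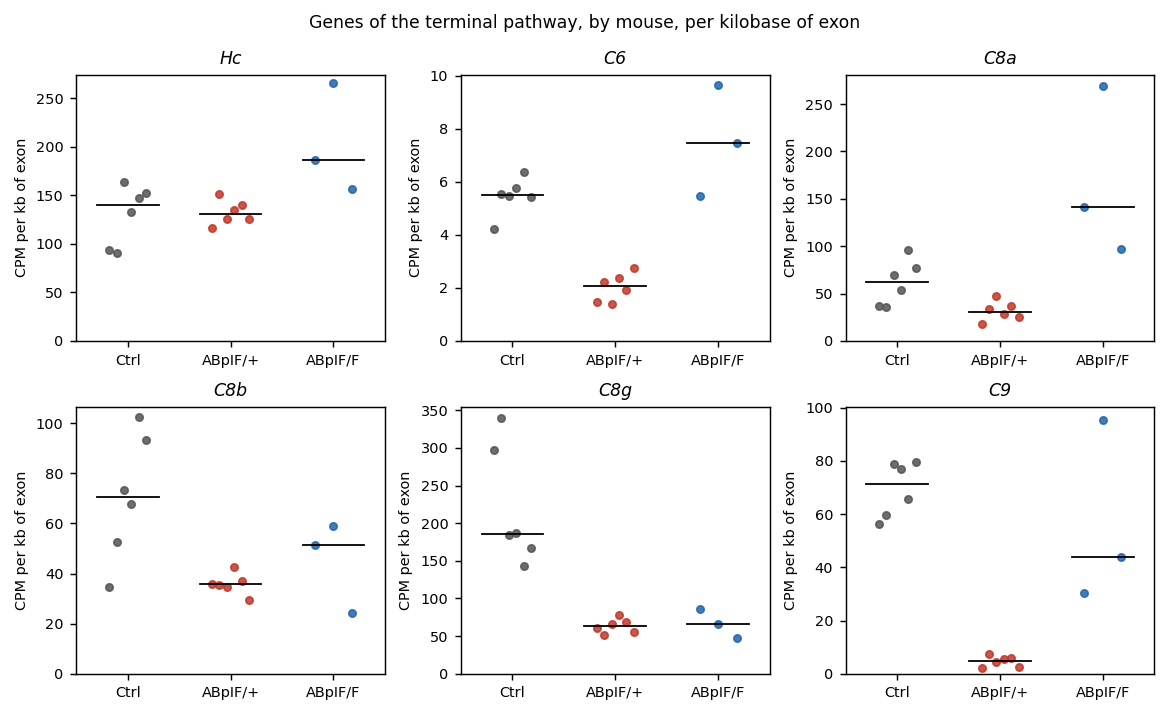
CPM per kilobase of exon (vertical axes, starting at 0) of the 6 genes of the terminal pathway, 1 point per mouse with 6 Ctrl, 6 ABpIF/+ and 3 ABpIF/F mice; the bars are medians. C8a is highest in the 3 ABpIF/F mice, C8g is lower in both ABpI groups than in Ctrl, and C9 lies near 0 in ABpIF/+ mice.

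In the classical pathway the C1q gene C1qb was called and the proteases and C4b were not. C1q is made mainly by macrophages, unlike most complement proteins. C1qb was at 8.87 CPM at the lowest, 12.5 at the median and 14.7 at the highest in Ctrl mice, at 3.10, 6.06 and 8.29 in ABpIF/+ mice, and at 8.68, 14.6 and 22.4 in the ABpIF/F mice BG183, BG90 and BG38. The ABpIF/+ mice lay below all other mice, BG88 only just. C1qb was 2.15-fold lower in ABpIF/+ than Ctrl livers (log2 fold change -1.10, standard error 0.25, edgeR adjusted p = 0.00284) and 2.68-fold lower than in ABpIF/F livers (-1.42, standard error 0.29, edgeR adjusted p = 0.00218). The fold against Ctrl was under 2 without BG40 (-0.98) or BG31 (-0.98), the call was lost without malpa387 and BG3 (edgeR adjusted p = 0.0185), and that against ABpIF/F was lost without BG38 (-1.03). C1qc, the gene beside it on chromosome 4, gave -0.63 in ABpIF/+ vs Ctrl (standard error 0.22, edgeR adjusted p = 0.0467) and was not called.

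Markers of other liver cells moved between the same groups. The 10 Kupffer cell and macrophage markers summed to 401 to 557 CPM in Ctrl, 163 to 297 in ABpIF/+ and 354, 622 and 775 in the ABpIF/F mice BG183, BG90 and BG38. In ABpIF/+ vs Ctrl 5 of the 10 markers fell. Clec4f, which defines Kupffer cells, was at 106 to 152 CPM in Ctrl mice and 38.4 to 67.4 in ABpIF/+ mice, and was 89.5, 160 and 163 in ABpIF/F mice. The 8 stellate cell and fibroblast markers summed to 212 to 275 CPM in Ctrl, 59.0 to 125 in ABpIF/+ and 233 to 365 in ABpIF/F mice, and 7 of the 8 fell in ABpIF/+ vs Ctrl. Neutrophil markers summed to 2.47 to 4.42 CPM in Ctrl, 2.34 to 9.73 in ABpIF/+ and 5.03, 34.2 and 97.5 in the ABpIF/F mice. Lymphocyte markers summed to 3.14 to 6.28 CPM in Ctrl, 0.605 to 2.40 in ABpIF/+ and 4.29 to 12.5 in ABpIF/F mice, and cholangiocyte markers to 19.9 to 28.0, 38.8 to 64.7 and 61.7 to 116 CPM. Hepatocyte markers, among which Alb and Apoa1 are the most abundant, were the highest of the marker sums in every mouse and also differed. They summed to 100172 to 132389 CPM in Ctrl, 177299 to 245051 in ABpIF/+ and 123674 to 217906 in ABpIF/F mice. The ranges of Ctrl and ABpIF/+ mice do not overlap in the lymphocyte, cholangiocyte and hepatocyte lists. The hepatocyte sum rests mainly on Alb, at 76790 to 104893 CPM in Ctrl and 128868 to 186385 in ABpIF/+ mice. Of the 10 hepatocyte markers 3 were called higher and 0 lower in ABpIF/+ vs Ctrl, and the middle value of their log2 changes was 0.09. In ABpIF/F vs Ctrl 1 was called higher and 3 lower, and that middle value was -0.49. In bulk RNA fewer cells of a type and less RNA per cell cannot be told apart, and the part of these shifts in the values of C1qb, Fcna, Colec11 and C3ar1 was not tested.

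The 18 interferon response genes summed to 610 to 716 CPM in Ctrl, 285 to 472 in ABpIF/+ and 899 to 1592 in ABpIF/F mice. In ABpIF/+ vs Ctrl 10 of them fell, in ABpIF/F vs Ctrl 10 rose, and 17 were lower in ABpIF/+ than ABpIF/F livers. The 14 acute phase genes summed to 7902 to 9891 CPM in Ctrl and 12441 to 26674 in ABpIF/+ mice. In the ABpIF/F mice BG183, BG90 and BG38 they summed to 13964, 38319 and 15625 CPM, so that BG90 stood far above the others. Of these, 4 rose and 1 fell in ABpIF/+ vs Ctrl, and 5 rose in ABpIF/F vs Ctrl. Haptoglobin, Hp, for example, rose in both ABpI groups (log2 fold change 2.08 and 1.99, edgeR adjusted p = 2.3e-06 and 4.0e-05). The median log2 fold changes of the acute phase genes were 0.37 and 1.49, beside -0.23 and 0.15 for the complement genes. Single genes differed between the ABpIF/F mice. Saa1 was at 11.5, 492 and 13.8 CPM in BG183, BG90 and BG38, against 20.0 to 33.4 in Ctrl mice, whereas Hp lay above all Ctrl mice in each of them.

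**Figure D5:**
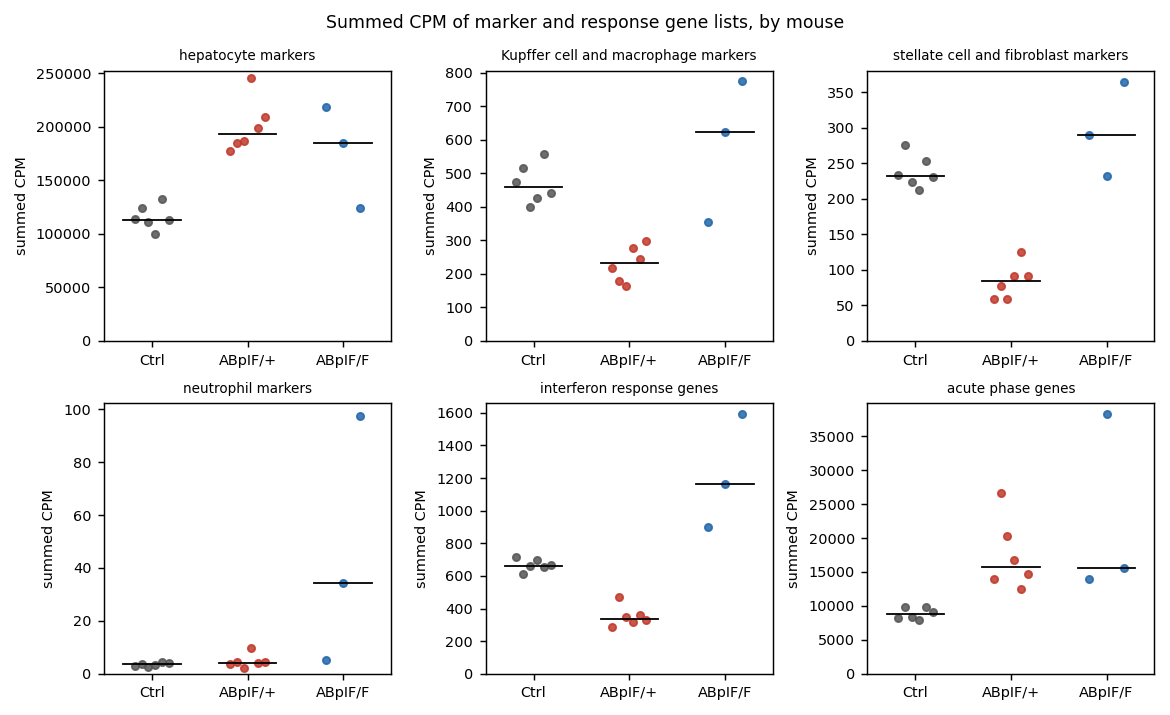
Summed CPM (vertical axes, starting at 0) of marker and response gene lists, 1 point per mouse with 6 Ctrl, 6 ABpIF/+ and 3 ABpIF/F mice; the bars are medians. Kupffer cell, stellate cell and interferon response sums of the 6 ABpIF/+ mice lie below those of all other mice, and neutrophil markers are highest in 2 of the 3 ABpIF/F mice.

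The other classical genes moved less. C4b, cleaved by C1s and MASP-2, was at 1236 CPM at the lowest, 1403 at the median and 1484 at the highest in Ctrl mice and at 950, 1093 and 2320 in ABpIF/+ mice. The ABpIF/F mice BG183, BG90 and BG38 had 1723, 3598 and 2102 CPM, all above the Ctrl mice. ABpIF/F vs Ctrl gave 0.86 (standard error 0.25, edgeR adjusted p = 0.0177) and was not called, and without BG183 it was 1.06 and called (edgeR adjusted p = 0.00587). Reads of C4b may be shared with its near-identical copy C4a, which was at 13.9 CPM or less. C2, which supplies the protease of the C3 convertase, was higher in both ABpI groups with no overlap, at 90.4 to 121 CPM in Ctrl, 163 to 248 in ABpIF/+ and 195 to 232 in ABpIF/F mice. Its log2 fold changes of 0.94 (standard error 0.12, edgeR adjusted p = 1.88e-06) and 0.96 (standard error 0.14, edgeR adjusted p = 2.71e-05) are just under the 2-fold threshold, and it was not called. The proteases C1ra and C1s1 gave -0.19 and 0.17 in ABpIF/+ vs Ctrl and 0.06 and 0.30 in ABpIF/F vs Ctrl.

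No gene of the alternative pathway was called by edgeR or DESeq2 with all mice. At an unadjusted p under 0.05 there was 1 gene per comparison, Cfp in both comparisons of ABpIF/+ and Cfb in ABpIF/F vs Ctrl. C3 was at 7908 CPM at the lowest, 11571 at the median and 13148 at the highest in Ctrl mice, with malpa387 and BG3 at 7908 and 8989, and at 9384, 10282 and 16403 in ABpIF/+ mice. The ABpIF/F mice BG183, BG90 and BG38 had 10010, 19916 and 11313 CPM, and BG90 exceeded all other mice. ABpIF/+ vs Ctrl gave 0.03 with a 95% interval of -0.38 to 0.43, and ABpIF/F vs Ctrl gave 0.33 with an interval of -0.16 to 0.83, both within a 2-fold change. Cfb, encoding factor B, was at 1044 to 1212 CPM in Ctrl, 1080 to 1456 in ABpIF/+ and 1329 to 1934 in ABpIF/F mice (ABpIF/F vs Ctrl 0.46, standard error 0.16, edgeR adjusted p = 0.0483). Cfb and C2 lie next to each other on chromosome 17, with 87 bases between them, and in ABpIF/+ vs Ctrl gave 0.14 and 0.94. Cfp, encoding properdin, which leukocytes make, gave -0.70 in ABpIF/+ vs Ctrl (standard error 0.19, edgeR adjusted p = 0.00824), under 2-fold. Without BG183 it was called in ABpIF/+ vs ABpIF/F (-1.01, edgeR adjusted p = 0.00164).

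Among the regulators 1 gene fell and 1 rose. Cd55, encoding decay-accelerating factor, which breaks up convertases on cell surfaces, was at 10.9 CPM at the lowest, 14.3 at the median and 17.1 at the highest in Ctrl mice and at 3.4, 5.33 and 8.90 in ABpIF/+ mice. In the ABpIF/F mice BG183, BG90 and BG38 it was at 14.8, 10.9 and 10.6 CPM. The ABpIF/+ mice lay below all other mice. Cd55 was 2.5-fold lower in ABpIF/+ than Ctrl livers (log2 fold change -1.32, standard error 0.20, edgeR adjusted p = 3.14e-05) and 2.17-fold lower than in ABpIF/F livers (-1.12, standard error 0.24, edgeR adjusted p = 0.00182). The second call was lost without BG183 (-0.95).

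Clu (chr14:65968483-65981548 on GRCm38.p6), encoding clusterin, a chaperone that keeps the terminal complex soluble, was at 1081 CPM at the lowest, 1190 at the median and 1554 at the highest in Ctrl mice and at 1280, 1689 and 2166 in ABpIF/+ mice. In BG183, BG90 and BG38, the ABpIF/F mice, it was at 2930, 4098 and 5116 CPM, above all other mice. It rose 3.23-fold in ABpIF/F vs Ctrl (log2 fold change 1.69, standard error 0.19, edgeR adjusted p = 1.20e-06) and was 2.38-fold lower in ABpIF/+ than ABpIF/F livers (-1.25, standard error 0.19, edgeR adjusted p = 8.60e-05). ABpIF/+ vs Ctrl gave 0.44 (standard error 0.16, edgeR adjusted p = 0.0483). With the clock score as covariate the value in ABpIF/F vs Ctrl was 1.44 and was not called (edgeR adjusted p = 0.0120).

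Cfi, encoding factor I, which inactivates C3b and C4b, was higher in both ABpI groups with no overlap, at 575 to 740 CPM in Ctrl, 949 to 1373 in ABpIF/+ and 1089 to 1597 in ABpIF/F mice. Its log2 fold changes of 0.77 (standard error 0.14, edgeR adjusted p = 0.000176) and 0.91 (standard error 0.16, edgeR adjusted p = 0.000325) are under 2-fold and were not called. Vtn, the most abundant regulator that was not called, was at 1939 CPM at the lowest, 2234 at the median and 2750 at the highest in Ctrl mice, at 1947, 2243 and 2562 in ABpIF/+ mice, and at 2472, 3370 and 1785 in the ABpIF/F mice BG183, BG90 and BG38. All 3 groups overlapped, and ABpIF/+ vs Ctrl gave -0.03 with a 95% interval of -0.35 to 0.29. Serping1, encoding C1 inhibitor, gave -0.23 in ABpIF/+ vs Ctrl, 0.62 in ABpIF/F vs Ctrl (edgeR adjusted p = 0.0139) and -0.85 in ABpIF/+ vs ABpIF/F (edgeR adjusted p = 0.00116), each under 2-fold. Without BG183 the last of these was -1.04 and was called (edgeR adjusted p = 0.000219). C4bp, Cd59a, Cr1l and Cfhr2 stayed between -0.49 and 0.46 in the 3 comparisons. Cd59a and Cfhr2 belong to families of similar genes, between which shared reads could have been divided.

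Both receptors were rare. C3ar1, the receptor of the C3 fragment C3a on myeloid cells, was at 1.45 CPM at the lowest, 2.51 at the median and 4.07 at the highest in Ctrl mice, at 0.812, 1.49 and 2.66 in ABpIF/+ mice, and at 2.55, 4.72 and 7.23 in the ABpIF/F mice BG183, BG90 and BG38. The ABpIF/+ and ABpIF/F mice overlapped through BG183. C3ar1 was 2.94-fold lower in ABpIF/+ than ABpIF/F livers (log2 fold change -1.56, standard error 0.37, edgeR adjusted p = 0.00441), a call that was lost without BG31, BG88, BG175, BG90 or BG38, at values between -1.57 and -1.14. C5ar1, the receptor of C5a, was at 0.373 to 0.861 CPM in Ctrl, 0.282 to 1.09 in ABpIF/+ and 0.392, 1.64 and 1.97 CPM in ABpIF/F mice and was not called. In BG90 and BG38, where both receptors were highest, the neutrophil and macrophage marker sums were also highest.

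A further list held 25 complement genes outside the 33. In ABpIF/+ vs Ctrl 6 of the 25 fell, among them C1qa, C7, Cfhr3, Colec10 and Cd59b. In ABpIF/F vs Ctrl 2 fell, among them Cd59b, and Itgam rose. In ABpIF/+ vs ABpIF/F 10 were lower, among them C1qa, C4a, C7, Colec10, Cr2, Itgam, Itgax, Itgb2 and Cd93. Colec10, whose product pairs with collectin-11, was at 21.9 to 30.7 CPM in Ctrl and 4.26 to 11.4 in ABpIF/+ mice (-1.75, standard error 0.22, edgeR adjusted p = 5.7e-06). C7, the remaining component of the terminal complex, was at 0.261 to 0.697 CPM in Ctrl, 0.184 or less in ABpIF/+ and 0.522, 0.464 and 2.77 CPM in the ABpIF/F mice. Itgam and Itgax, which encode chains of the complement receptors CR3 and CR4 on leukocytes, gave -2.62 and -2.39 in ABpIF/+ vs ABpIF/F. Itgam was at 0.931 to 1.59 CPM in Ctrl, 0.242 to 1.43 in ABpIF/+ and 1.31, 5.39 and 9.92 in BG183, BG90 and BG38. BG183 thus overlapped with both other groups. Itgax was at 0.858 to 1.86, 0.256 to 1.81 and 1.89, 3.11 and 8.00 CPM, with BG183 only just above the other groups. Cpn1, Cpn2 and C1rl, made by hepatocytes, were not called and stayed between -0.15 and 0.24 in the 3 comparisons.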

How the data were processed

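Per the labels and methods, RNA isolated by Trizol went into Illumina stranded mRNA libraries, and the authors aligned trimmed read pairs to mm10 (HISAT2) and counted them per gene (featureCounts 2.0.8). The annotation and strand setting of the counting are not given in the sources used here. The deposited counts are raw and cover 27179 genes and 15 mice, to which 23 listed samples belong, 2 for each of 8 mice. A second table held identical counts in the 10 columns compared, and 5 further columns of it, named by number alone, were not used. The authors' deposited fold changes and p-values were not used.

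Differences were tested with edgeR 4.0.16 in R 4.3.3 (TMM, robust quasi-likelihood in the form of edgeR 3, all genes, 1 fit of 3 groups, Benjamini-Hochberg), with DESeq2 1.42.0 as an alternative and simulated data as a test of the script. Standard errors are the log2 fold change divided by the root of F. P-values are from tests of the difference between groups, set against the spread between mice, which is estimated with information shared over genes. Exon lengths are the union of GENCODE M21 exons on GRCm38. Groups came from the genotype labels. The members and lists were chosen with earlier results of these data known. Values by mouse are given for called members and the most abundant uncalled member of each pathway, others by range. Of the other lists, called or most abundant genes were named, and Saa1 for its spread between mice. Alternatives were other scalings, filters, tests and thresholds, own-group fits, a clock covariate, BG3 as the only Ctrl and leaving out each mouse. Leaving out malpa387 with BG3 was added after seeing the data. Some genes of the further complement list are not reported here.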

Additional observations from a re-analysis of the deposited data

Results flagged for a closer look

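In all, 5 of 66 combinations of a complement gene and a group of 6 mice had 1 mouse far from the rest by Dixon's gap test, where chance flags about 1 in 20. In Ctrl mice Fcna was highest in BG3, with 61.5 CPM against 46.6 in the next mouse. In ABpIF/+ mice C3 was highest in BG40, with 16403 CPM against 10777 in the next. C4bp was lowest in BG55, with 299 CPM against 398 in the next. Cfhr2 was highest in BG88, with 651 CPM against 514 in the next. Cfd was found in BG88 alone of the ABpIF/+ mice, at 0.332 CPM, which stands on 9 counts. With 0 counts in the other ABpIF/+ mice any count in 1 mouse is flagged, so the rate of 1 in 20 does not apply to Cfd.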

How the results depend on the processing

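Counts of called complement genes were 8 in ABpIF/+ vs Ctrl, 6 in ABpIF/F vs Ctrl and 9 in ABpIF/+ vs ABpIF/F. Requiring log2 fold changes of 2 or more in size left 3, 1 and 2, namely Mbl1, Colec11 and C9, then Mbl2, then C8a and C9. With the clock score as covariate the counts were 8, 2 and 1, and C2 was gained in ABpIF/F vs Ctrl. Several lost genes kept log2 fold changes of similar or larger size in that fit, C9 -3.58, C8a -2.96 and C3ar1 -2.08 in ABpIF/+ vs ABpIF/F, and Mbl1 -1.59, Mbl2 -2.13, Fcna -1.51 and C8a 1.99 in ABpIF/F vs Ctrl, while Mbl1 in ABpIF/+ vs ABpIF/F moved to -0.73. The clock score lies apart in ABpIF/F mice and malpa387, so clock phase and Icmt genotype can be told apart through 1 mouse only. With BG3 as the only Ctrl mouse, assumed to vary like the other groups, 6 and 1 were called. Without malpa387 and BG3, 9 and 2 were called, C8g and Clu in ABpIF/F vs Ctrl. Leaving out 1 mouse at a time gave 7 to 9, 4 to 5 and 6 to 12 calls, with 12 in ABpIF/+ vs ABpIF/F without BG183 and 6 without BG38. RLE and upper quartile factors, filterByExpr, edgeR 4, no robust estimation, an adjusted p under 0.05, the groups' own mice, DESeq2 and the other table gave 8 to 9, 5 to 6 and 6 to 10. The median log2 fold change of expressed genes moved by less than 0.1 under the other scalings. No log2 fold change of a called gene changed sign: 190 of 200 values kept their call in ABpIF/+ vs Ctrl, 92 of 132 in ABpIF/F vs Ctrl and 152 of 180 in ABpIF/+ vs ABpIF/F. The cause of lost calls was not tested. No paired analysis was possible because the labels name mice and give no shared replicate numbers.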
